A study of Mus musculus with 8 samples.

Results

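Transcripts of 10 genes of the MHC class I pathway were followed through 8 RNA-Seq libraries of somatostatin (SST) neurons of the mouse hypothalamus. The genes are H2-K1, H2-D1, B2m, Tap1, Tap2, Tapbp, Nlrc5, Psmb8, Psmb9 and Psmb10. They were chosen by symbol, with no measured value entering the choice, out of 35968 genes with a transcript in the tables, and all 10 passed the count filter that left 15194 genes for testing. Each library came from 1 mouse of the genotype Ssttm2.1(cre)Zjh/J / +, in which Cre recombinase is made in cells that express Sst, and 4 females and 4 males were sampled. All mice of both sexes carried the Cre allele and had received AAV2-flex-tdTomato, a virus whose red reporter is switched on by Cre. The tuberal nucleus region was dissected, dissociated with papain and sorted for live cells with tdTomato. Females were cycling, males were gonadally intact, and an age was not given in the labels. Sex was the only labelled difference between the 2 groups, and the sorted population is defined by the reach of the virus and by Cre, not by the absence of markers of other cells.

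MHC class I molecules display peptides made inside a cell to cytotoxic T cells. A heavy chain, here H2-K1 or H2-D1, pairs with beta-2-microglobulin, the product of B2m. Peptides are cut by the proteasome, in which Psmb8, Psmb9 and Psmb10 are the catalytic subunits that interferon induces, pumped into the endoplasmic reticulum by the Tap1 and Tap2 transporter and loaded with the help of tapasin, the product of Tapbp. Nlrc5 is the transactivator of these genes. In healthy brain, class I transcripts are known to be low in neurons and higher in microglia and endothelial cells, and interferon raises them in many cell types.

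The heavy chain genes and B2m carry a compact array of elements just upstream of their starts. The 250 bases before the RefSeq start (build GRCm38.p6) are shown for these 3 genes, whose levels moved together in the libraries below. So did those of the rest of the 10 genes, including Tapbp and Psmb8, whose windows hold none of the elements marked here. Capitals mark GGGGA and TCCCC with any 1 base between them (the NF-kappaB type site of class I enhancers), GAAA and GAAA with any 2 bases between them (the core of an interferon-stimulated response element, ISRE) and the pair TGACG and ATTGG separated by 20 bases. The windows are chr17:34000348-34000597 on the minus strand, chr17:35262844-35263093 on the plus strand and chr2:122147437-122147686 on the plus strand.
H2-K1: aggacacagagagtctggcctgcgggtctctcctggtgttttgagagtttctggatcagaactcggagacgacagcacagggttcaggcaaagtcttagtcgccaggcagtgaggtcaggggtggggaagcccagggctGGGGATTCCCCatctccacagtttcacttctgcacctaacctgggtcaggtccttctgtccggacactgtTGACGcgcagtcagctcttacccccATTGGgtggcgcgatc
H2-D1: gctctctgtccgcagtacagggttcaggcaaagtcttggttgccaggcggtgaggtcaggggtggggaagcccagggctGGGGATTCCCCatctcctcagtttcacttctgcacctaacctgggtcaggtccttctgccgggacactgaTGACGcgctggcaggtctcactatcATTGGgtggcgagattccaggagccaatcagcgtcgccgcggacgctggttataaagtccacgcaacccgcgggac
B2m: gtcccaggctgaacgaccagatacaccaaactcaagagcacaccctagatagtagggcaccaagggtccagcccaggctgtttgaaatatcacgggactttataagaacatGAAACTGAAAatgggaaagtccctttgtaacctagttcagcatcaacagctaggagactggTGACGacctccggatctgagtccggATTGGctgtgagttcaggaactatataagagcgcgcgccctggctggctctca
The H2-K1 and H2-D1 windows shared an identical run of 47 bases, against 8 bases for H2-K1 and B2m. GGGGATTCCCC lay at -111 to -101 in H2-K1 and at -171 to -161 in H2-D1, and GAAACTGAAA lay at -139 to -130 in B2m, with positions counted back from the start. The spaced pair was chosen after these sequences were read. It began at -41 in H2-K1, -101 in H2-D1 and -78 in B2m, and its ATTGG is also a match to CCAAT on the other strand. Windows were found for 8 of the 10 genes. On either strand, the NF-kappaB type letters were in 2 of these 8 and in 0.0457% of 32817 promoter windows of this length, the spaced pair in 3 and 0.0914%, the ISRE core in 1 and 2.97%, TTC and GAA with any 3 bases between them (the core of an interferon-gamma activated site) in 1 and 7.01%, CCAAT in 6 and 33.8%, and TGACG in 5 and 17.7%. Psmb9 and Tap1 share a divergent promoter, and their windows overlapped by 225 bases. Their CCAAT matches are the same bases read from both sides, and so are their TGACG matches. Each of these is thus counted 2 times among the 8 windows. A match describes letters only and is no evidence of binding. The ISRE core was searched in a strict form only. The lack of a match in H2-K1 and H2-D1 therefore does not show that they lack such an element.

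In mm10 coordinates, 7 of the 10 genes lie on chromosome 17. H2-K1 spans 33996017 to 34000347, Tapbp 33915899 to 33929292, Psmb9 34181987 to 34187764, Tap1 34187553 to 34197225, Psmb8 34197721 to 34201454, Tap2 34203527 to 34216321 and H2-D1 35262730 to 35267499. B2m is at 122147686 to 122153083 on chromosome 2, and Nlrc5 (94434356 to 94527272) and Psmb10 (105935735 to 105938444) are on chromosome 8. Psmb9 and Tap1 overlap by 212 bases on opposite strands, Psmb8 begins 495 bases after Tap1, and Tap2 begins 2072 bases after Psmb8.

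The libraries held 7782352 to 17503537 estimated counts in the tested genes per mouse, and a count of 3, the limit used for a gene not seen, corresponds to 0.148 to 0.458 CPM (counts scaled by library size). Lars2 took 9.34 to 34.4% of the counts. Sst itself was at 898 to 1883 TPM (transcripts scaled by length and library size) and Ddx3y counts matched the labelled sex in 8 of 8 mice. Neuronal markers were present in all mice, with a summed level of 1397 to 2594 TPM over 8 genes. Markers of microglia were present too, at a summed 368 to 4002 TPM over 8 genes, and this sum was above that of the neuronal markers in female 1 and males 2, 3 and 4. Female 1 and male 2 stand apart from the other mice of their sex in several of the results below, which are given with and without female 1. In such sorted pools, fewer cells of a type and less RNA per cell cannot be told apart.

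Class I transcripts were abundant in these libraries, but by amounts that differed from mouse to mouse far more than for most genes. On the TPM scale, which corrects for transcript length, the mean level over 8 mice was 717 TPM for B2m, 615 for H2-K1 and 341 for H2-D1, which ranked 84, 117 and 314 among all genes. The loading and processing genes were lower, with 70.6 TPM for Tapbp, 61.5 for Psmb8, 36.5 for Psmb10, 27.6 for Tap2, 26.7 for Tap1, 15.4 for Nlrc5 and 14.7 for Psmb9. B2m was the highest of the 10 in every mouse, at 1.00 to 1.87 times the TPM of H2-K1, and H2-K1 was 1.06 to 2.01 times H2-D1. Tap1 and Tap2, whose products form 1 transporter, had a TPM ratio between 0.478 and 1.72. The order of Tap1 and Tap2 therefore differed between mice, as did that of Nlrc5 and Psmb9. The SD of log2 CPM over the 8 mice had a median of 1.504 for the 10 genes against 0.28 for all tested genes, and each of the 10 ranked between percentile 88.7 (Psmb10) and percentile 98.9 (H2-K1) of all tested genes in this spread.

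**Figure D1:**
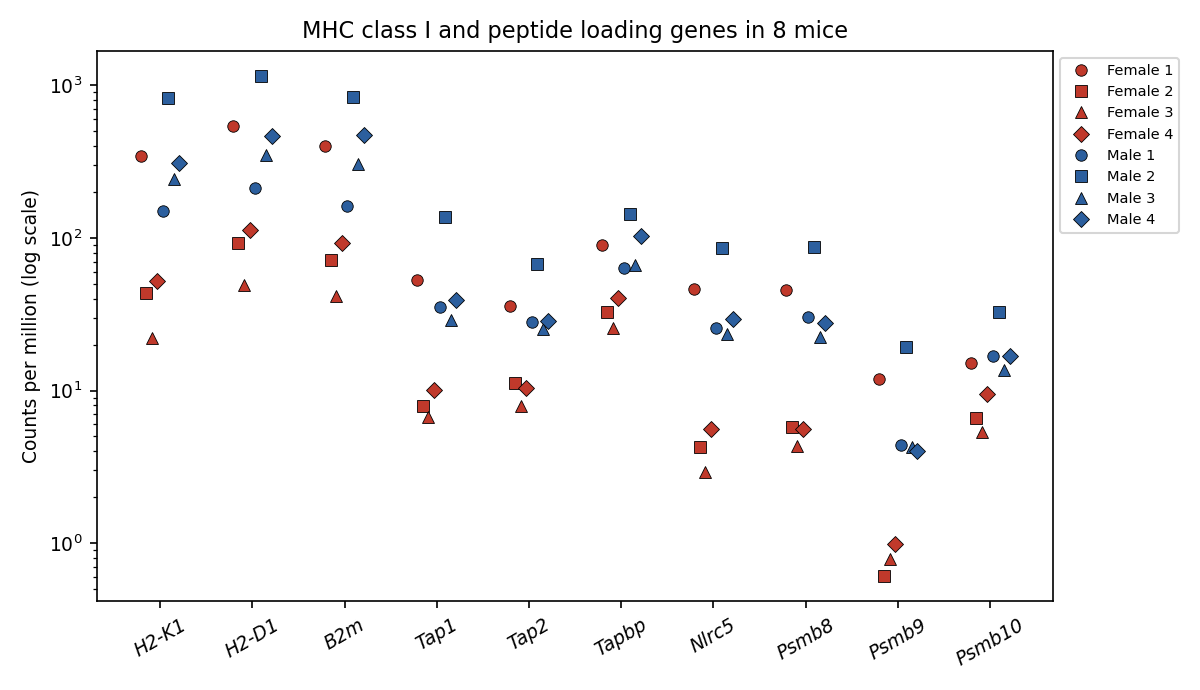
CPM (log axis) of the 10 genes in each of 8 mice, with 1 point per mouse, females in red and males in blue, and the mouse number given by the symbol. Male 2 is the highest point of every gene, and females 2, 3 and 4 lie below the other 5 mice in all 10 genes.

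The classical heavy chains spanned more than an order of magnitude. H2-K1 was at 346, 43.7, 22.1 and 52.3 CPM in females 1 to 4 and at 149, 825, 242 and 308 CPM in males 1 to 4. Females 2, 3 and 4 were low and male 2 was highest, and the sexes overlapped because female 1 was above 3 of the 4 males. H2-D1 was at 539, 93.0, 49.4 and 112 CPM in the females and at 213, 1157, 350.3 and 465 CPM in the males. Its order over the 8 mice was the same as that of H2-K1 (Spearman's rho = 1). B2m, the shared light chain, was at 401, 72.2, 41.6 and 92.7 CPM in the females and at 162, 835, 305 and 469.9 CPM in the males. It differed from the heavy chains in male 4, which was above female 1 for B2m and below it for H2-K1 and H2-D1.

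The transporter and tapasin genes kept the same division of the mice, over a range from the lowest to the highest mouse of 20.5-fold for Tap1 and 8.59-fold for Tap2. Tap1 was at 52.7, 7.94, 6.71 and 10.1 CPM in females 1 to 4 and at 35.3, 137, 29.1 and 39.3 CPM in males 1 to 4. Tap2 was at 35.9, 11.2, 7.89 and 10.4 CPM in the females and at 28.1, 67.8, 25.5 and 28.7 CPM in the males. For both genes female 1 was above 3 males and the other 3 females were below every male. Tapbp was at 90.1, 32.8, 25.7 and 40.1 CPM in the females and at 63.8, 143, 66.4 and 103 CPM in the males. It had the smallest range of the 10 genes, 5.57-fold from the lowest to the highest mouse, against 37.3-fold for H2-K1.

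The 3 induced proteasome subunits and Nlrc5 had the same low mice. Psmb8 was at 45.7, 5.80, 4.34 and 5.58 CPM in females 1 to 4 and at 30.3, 87.2, 22.4 and 27.8 CPM in males 1 to 4. Psmb9 was the scarcest gene, at 11.99, 0.61, 0.79 and 0.99 CPM in the females and at 4.40, 19.3, 4.29 and 4.03 CPM in the males, and its estimated counts ran from 4 to 211 per library. Females 2, 3 and 4 were therefore close to the limit of 3 counts for Psmb9, and their values there are imprecise. Psmb10 was at 15.1, 6.57, 5.33 and 9.45 CPM in the females and at 16.8, 32.6, 13.6 and 16.9 CPM in the males. Here female 1 was above male 3 only. Nlrc5, the transactivator, was at 46.6, 4.28, 2.91 and 5.58 CPM in the females and at 25.6, 85.6, 23.3 and 29.4 CPM in the males. For Nlrc5 as for Psmb8, a wide step separated 3 low females from the other 5 mice.

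Whether class I genes differed between females and males of these SST neuron pools was asked with edgeR over all genes, and none of the 10 passed the test. All 10 had lower fitted levels in females, but female 1 was in the range of the males for each of them. The number past an adjusted p of 0.05 was 0 of 10, in a fit that called 0.158% of all tested genes (0.0461% as lower in females), and 3 of 10 (Tap2, Tapbp and Psmb10) had an unadjusted p under 0.05, where 20.5% of all tested genes did (10.7% as lower in females). The log2 fold change of females against males had a median of -1.46 over the 10 genes and -0.00432 over all tested genes. It was below 0 for 10 of 10 genes and 50.6% of all genes, and below -1 for 9 of 10 and 6.44%. The sexes were free of overlap in 0 of 10 genes and in 10.4% of all tested genes, and every female was below every male in 3.94%. The fitted level of H2-K1 in males was 3.29-fold that in females (log2 fold change -1.72, SE 0.86, edgeR quasi-likelihood test, Benjamini-Hochberg adjusted p = 0.285). For B2m the log2 fold change was -1.55 (SE 0.72, edgeR adjusted p = 0.258) and for H2-D1 -1.46 (SE 0.76, edgeR adjusted p = 0.304). The transporter genes stood at -1.65 for Tap1 and -1.21 for Tap2, and tapasin at -0.997. Psmb10 had the smallest adjusted p of the 10 (log2 fold change -1.14, SE 0.37, edgeR adjusted p = 0.159), and DESeq2, which called 7.86% of the genes it gave an adjusted p (3.48% as lower in females), passed Psmb10 alone (DESeq2 adjusted p = 0.0340). DESeq2 gave no p for Tap1, Nlrc5, Psmb8 and Psmb9. Psmb9 had the largest, at -1.18 (SE 0.97, edgeR adjusted p = 0.517). A 2-sided exact permutation test of mean log2 CPM, which cannot go below 0.0286 with 4 against 4 mice, gave p = 0.0571 for Psmb10, p = 0.0857 for B2m and Tapbp and p = 0.114 for the other 7 (exact, Benjamini-Hochberg adjusted p = 0.114 for all 10).

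Female 1 decided this outcome. Without female 1, 9 of the 10 genes were lower in females by edgeR at an adjusted p under 0.05, where 2.67% of all tested genes were called and 1.27% as lower in females. Psmb10 was the exception (log2 fold change -1.49, SE 0.34, edgeR adjusted p = 0.0541). The change was then -3.29 (SE 0.61, edgeR adjusted p = 0.0393) for H2-K1, -2.69 (SE 0.54, edgeR adjusted p = 0.0426) for B2m, -3.29 (SE 0.54, edgeR adjusted p = 0.0355) for Nlrc5 and -3.02 (SE 0.50, edgeR adjusted p = 0.0355) for Psmb8. Leaving out any other mouse called none of the 10. Without male 2, the highest mouse of every gene, the median log2 fold change of the 10 was -0.81, with -1.01 for H2-K1 (edgeR adjusted p = 0.602), -0.79 for H2-D1, -1.04 for B2m and -0.26 for Psmb9 (edgeR adjusted p = 0.922). The division of females 2, 3 and 4 from the other 5 mice, noticed after the values were seen, held for 10 of 10 genes and for 7.33% of all tested genes. The calls without female 1 rest on this same division. They are no separate support for a sex difference, here or in the gene lists below.

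**Figure D2:**
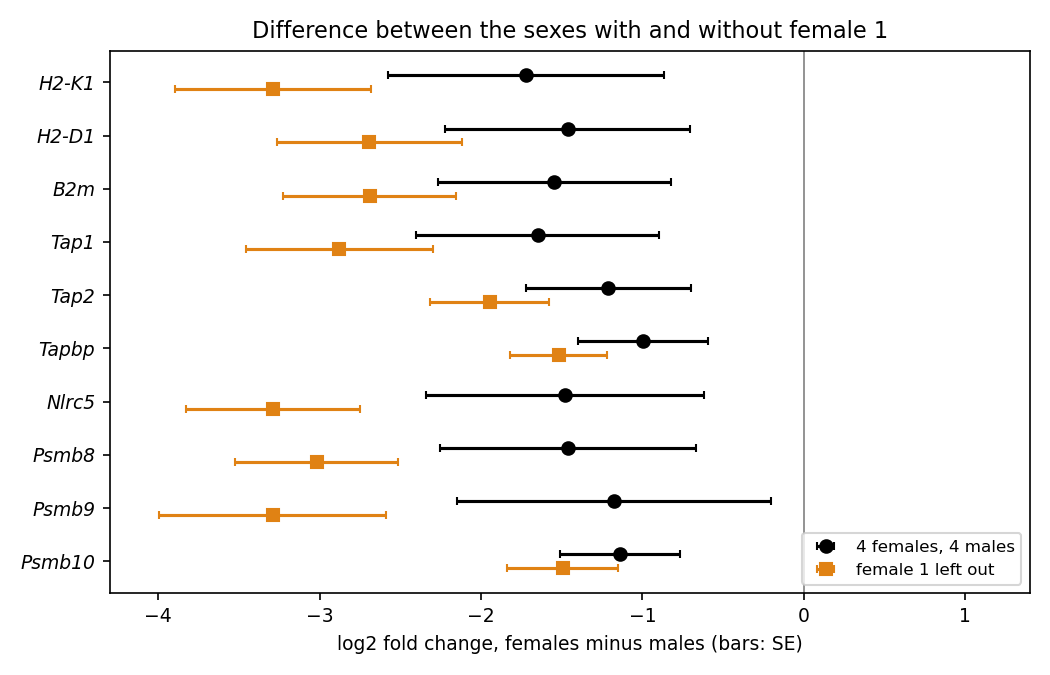
Fitted log2 fold change of females minus males for the 10 genes (x axis, with SE bars), with all 8 mice as black circles and with female 1 left out as orange squares. All values lie below 0, and without female 1 they lie between -3.29 and -1.49.

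Each induced subunit takes the place of a constitutive one, and the TPM ratio of the gene totals within a library needs no scaling between libraries. These totals include transcripts that are not protein coding. Protein-coding transcripts took 31.7 to 95.0% of the Psmb8 counts, 75.8 to 100% for Psmb9 and 37.7 to 74.5% for Psmb10 per mouse. Psmb8 over Psmb5 was 1.84, 0.273, 0.153 and 0.220 in the 4 females and 0.948, 2.80, 0.898 and 1.32 in the 4 males. The gene total of the induced subunit was thus the higher of this pair in female 1 and in males 2 and 4. Psmb10 over Psmb7 was 0.517, 0.260, 0.176 and 0.418 in the females and 0.637, 1.37, 0.478 and 0.827 in the males, and it passed 1 in male 2 alone. Psmb9 over Psmb6 stayed below 1 in all mice, between 0.00785 in female 2 and 0.447 in male 2. On the log2 scale females minus males was -1.88 for Psmb8 over Psmb5 (exact permutation p = 0.114, adjusted 0.171), -1.65 for Psmb9 over Psmb6 (exact permutation p = 0.229, adjusted 0.229) and -1.27 for Psmb10 over Psmb7 (exact permutation p = 0.0571, adjusted 0.171). None of the 3 ratios passed the test. The constitutive subunits Psmb5, Psmb6 and Psmb7 spanned 1.30-fold to 1.49-fold in CPM over the 8 mice, against 2.66-fold for Psme1, 2.24-fold for Psme2 and 1.13-fold for Psme3 of the proteasome activator. Of these 6 genes, 0 passed the edgeR test and 1 had an unadjusted p under 0.05, with 4 lower and 2 higher in females and a median log2 fold change of -0.15. Psme1, a subunit of the interferon-induced PA28 activator, was at 136, 84.8, 76.9 and 89.4 CPM in the females and at 156, 204, 132 and 131 CPM in the males (log2 fold change -0.69, SE 0.20, edgeR adjusted p = 0.135), and without female 1 it was the 1 gene of its list to pass.

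**Figure D3:**
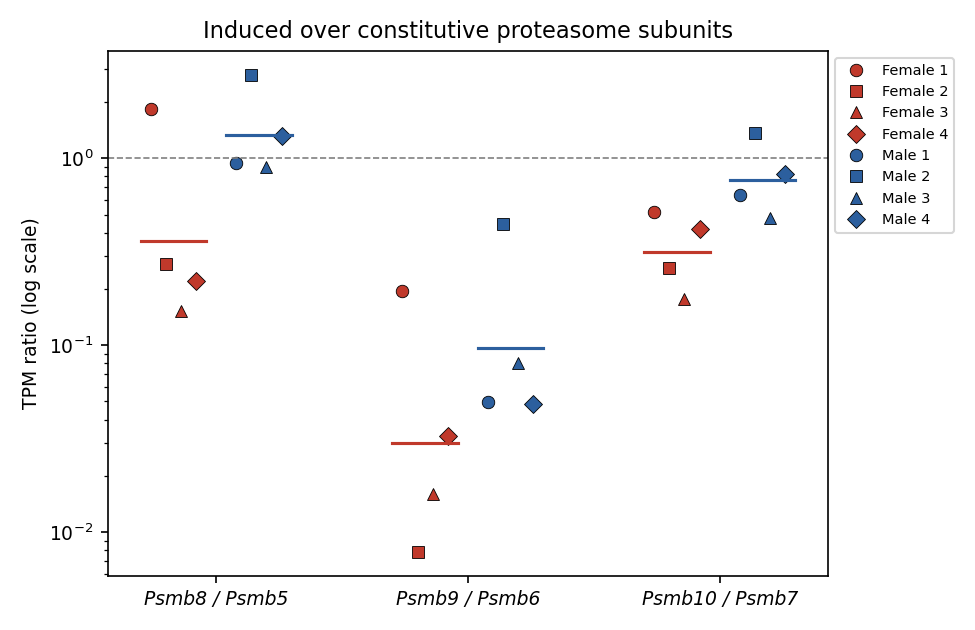
TPM ratio (log axis) of the gene total of each induced proteasome subunit over that of the constitutive subunit it replaces. Each mouse is 1 point, with females in red and males in blue, and the geometric mean of each sex is a line. Psmb8 over Psmb5 lies above 1 (dashed) in female 1 and males 2 and 4, and Psmb9 over Psmb6 lies below 1 in every mouse.

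Among the general chaperones and trimming enzymes of class I loading, 5 of 5 tested genes were lower in females, 0 passed the edgeR test and 4 had an unadjusted p under 0.05, with a median log2 fold change of -0.40. Canx (calnexin), Calr (calreticulin) and Pdia3 (ERp57) fold and hold heavy chains and serve many other proteins. Pdia3 was at 291, 295, 254 and 243 CPM in females and at 354, 397, 334 and 348 CPM in males, so the sexes did not overlap. Its log2 fold change was -0.40 (SE 0.09, edgeR adjusted p = 0.082). Calr (-0.33) and Canx (-0.20) did not overlap between the sexes either. For these 3 genes female 1 was at or near the level of the other females, unlike the 10 class I pathway genes. Erap1, which trims peptides in the endoplasmic reticulum, was at 27.6 CPM in female 1, 9.99 to 11.3 CPM in the other females and 20.6 to 38.5 CPM in males, and it passed without female 1.

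Of 10 regulators of class I genes, 0 passed the edgeR test and 2 had an unadjusted p under 0.05, with 8 lower in females and a median log2 fold change of -0.18. The subunits of the complex on which Nlrc5 acts had log2 fold changes of 0.20 for Rfxap, -0.30 for Rfxank and -0.15 for Rfx5, and of -0.81 for Nfya (unadjusted p = 0.022 and adjusted p = 0.188 by edgeR), 0.16 for Nfyb and -0.02 for Nfyc. Irf1 passed without female 1.

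Of 19 other class I and class I-like heavy chain genes, 15 could be tested, 14 were lower in females, 0 passed the edgeR test and 5 had an unadjusted p under 0.05, with a median log2 fold change of -0.91. H2-Q4 was at 127, 18.2, 16.2 and 26.4 CPM in the females and at 69.0, 215, 82.0 and 94.7 CPM in the males (log2 fold change -1.30, SE 0.67, edgeR adjusted p = 0.303). H2-T23, which encodes the Qa-1 molecule seen by natural killer cells, stood at -1.36 (edgeR adjusted p = 0.328), and H2-Q6 at -1.59 (edgeR adjusted p = 0.257). Females 2, 3 and 4 were below the other 5 mice in 8 of the 15 tested genes, and the log2 fold change was -0.13 for H2-Q2 and 0.20 for H2-M2. Without female 1, 3 of 15 passed, namely H2-Q4, H2-T23 and H2-Q6. Heavy chain genes resemble each other, and the assignment of reads between them is uncertain. Of the 31-base words of H2-K1 and H2-D1 transcripts, 22.8% and 26.9% also occurred in transcripts of other genes, against 0 for B2m and Psmb10. A further list held 8 immune receptor and receptor subunit genes, not all of which encode proteins that bind class I. Of these 8, 4 could be tested, all 4 were lower in females and 0 passed the edgeR test. Of the 4, 1 had an unadjusted p under 0.05, and the median log2 fold change was -1.31. The highest of them, Lilrb4a, reached 46.6 CPM in male 2 and was at 1.63 to 14.8 CPM in females.

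Microglial, MHC class II and interferon-induced genes moved with the class I genes, and their part in the results was not tested. All 12 interferon-induced genes of the list had females 2, 3 and 4 below the other 5 mice, and their summed level was 616, 76.3, 45.3 and 69.1 TPM in females 1 to 4 and 340, 790, 335 and 734 TPM in males 1 to 4. Of these 12, 0 passed the edgeR test and 2 had an unadjusted p under 0.05, with 12 lower in females and a median log2 fold change of -1.39, and 9 passed without female 1. The 8 microglial genes summed to 2082, 594, 368 and 922 TPM in the females and to 781, 4002, 2132 and 3469 TPM in the males. All 8 were lower in females (median log2 fold change -1.42), 5 had an unadjusted p under 0.05 and 0 passed the edgeR test with or without female 1. None of the 8 microglial genes was at 0 in any mouse, and C1qa, a complement subunit, reached 592 CPM in male 2 and 25.9 CPM in female 3. The 7 genes of MHC class II, the system of professional antigen-presenting cells, summed to 2410, 49.4, 51.8 and 65.3 TPM in the females and to 422, 5261, 535 and 136 TPM in the males. All 7 had a log2 fold change below 0 (median -1.36), 1 had an unadjusted p under 0.05 and 0 passed the edgeR test with or without female 1. Class II was thus far more uneven than class I, with a 106-fold range of the sum against 17.2-fold for the 10 class I pathway genes and 10.9-fold for microglia.

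Among the other lists, 0 genes passed the edgeR test with all 8 mice. Over all the lists beside the 10 genes, DESeq2 called 6 of the 86 genes with an adjusted p, beside 7.86% of all genes, namely Psme1, Pdia3, the class I-like Mr1, Snap25, Syt1 and Rbfox3 (DESeq2 adjusted p from 5.8e-05 for Rbfox3 to 0.0478 for Mr1). All 8 neuronal genes had a log2 fold change above 0 (median 0.13), with 3 at an unadjusted p under 0.05, and Snap25 and Syt1, of the machinery of transmitter release, together with Rbfox3 passed without female 1. Of the 5 lymphocyte genes tested of 8, 4 were lower in females (median log2 fold change -1.50, 1 at an unadjusted p under 0.05), with a summed level of 14.3 to 137 TPM over the list, and Cd3e, a subunit of the T cell receptor complex, was at 0 in females 2 and 4 and male 4. The 6 astrocyte genes (median -0.79, 1 at an unadjusted p under 0.05) and the 7 genes of the oligodendrocyte lineage (median -0.78, 3 at an unadjusted p under 0.05) were all lower in females, and of 6 endothelial genes 5 were (median -0.37, 0 at an unadjusted p under 0.05).

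**Figure D4:**
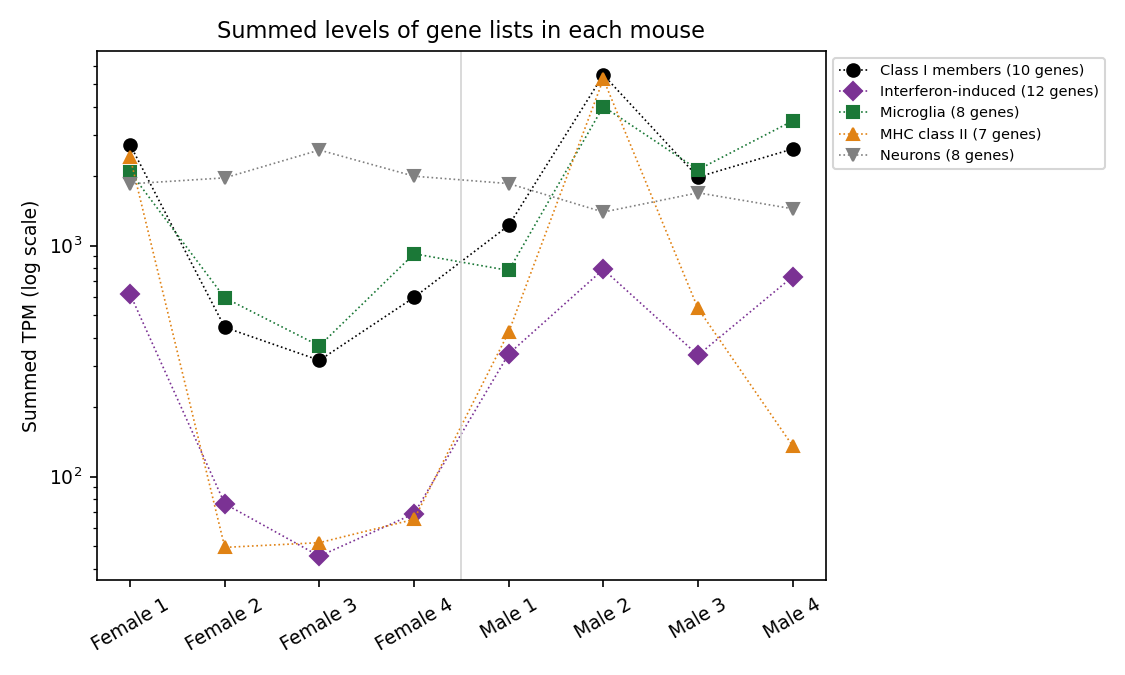
Summed TPM (log axis) of the 10 class I pathway genes and of 4 marker lists in each of 8 mice, joined by dotted lines only to guide the eye. The class I sum runs from 319 TPM in female 3 to 5490 TPM in male 2, MHC class II falls away in male 4, and the neuronal sum stays between 1397 and 2594 TPM.

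Levels of 4 of the class I pathway genes tracked the microglial markers over the mice. H2-K1, H2-D1, B2m and Tapbp were taken as forming no separate clusters of mice, by the gaps given below. Their log2 CPM over 8 mice correlated with the mean of the microglial genes at r = 0.915, 0.928, 0.954 and 0.919 (exact permutation, adjusted p = 0.00470, 0.00435, 0.00283 and 0.00432 over 40 relations). Spearman's rho was 0.857 for H2-K1 and H2-D1 and 0.929 for B2m and Tapbp (exact permutation, adjusted p = 0.0165 and 0.00595). Without female 3 and male 4, the 2 mice farthest from the median of the microglial mean, r was 0.895, 0.919, 0.936 and 0.866, and as deviations from the sex means it was 0.860, 0.882, 0.926 and 0.867. The same 4 genes had r of 0.813 to 0.864 with MHC class II (rho 0.857 to 0.929, exact permutation, adjusted p for r from 0.0122 to 0.0201), which fell to 0.634 to 0.745 without female 1 and male 2 (exact permutation p from 0.106 to 0.218), so this relation rests on those mice. With the neuronal mean r was -0.867 to -0.814 (rho -0.929 to -0.857, exact permutation, adjusted p for r from 0.0104 to 0.0201). Without males 2 and 4 it was -0.809 to -0.717 (exact permutation p from 0.0444 to 0.103) and held for B2m alone. Tap1, Tap2, Nlrc5, Psmb8, Psmb9 and the interferon-induced genes split the mice into sets of 3 and 5, and Psmb10 set male 2 apart. Correlations with these are therefore given as description only. Those of the genes with the microglial mean ran from r = 0.771 (Psmb9) to 0.841 (Nlrc5). With the interferon-induced mean, r was 0.968 to 0.979 for H2-K1, H2-D1, B2m and Tapbp, above their r with the microglial mean.

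Pairs of mice picked after the values were seen show where class I and microglial levels part or go together. Male 1 was above female 4 in 10 of 10 class I pathway genes, by 1.59-fold (Tapbp) to 5.43-fold (Psmb8) in CPM, but in only 2 of 8 microglial genes, with a median ratio of 0.783. All 12 interferon-induced genes were higher in male 1 than in female 4, with a median ratio of 4.36. Male 2 was above male 4 in 10 of 10 class I pathway genes, by 1.39-fold (Tapbp) to 4.80-fold (Psmb9), and in 3 of 8 microglial genes and 5 of 12 interferon-induced genes. MHC class II genes were higher in 7 of 7 cases in both pairs, by a median of 7.76-fold in male 1 over female 4 and 34.2-fold in male 2 over male 4. Female 1 was above female 4 in 10 of 10 class I pathway genes and in 8 of 8 microglial genes, with a median microglial ratio of 1.78. Female 1 was above male 4 in 7 of 10 class I pathway genes and in 0 of 8 microglial genes. Each pair is 1 library against another, so these ratios have no replicate check. The summed TPM of the 10 genes was 0.647 to 1.57 times that of the 8 microglial genes, lowest in female 4 and highest in male 1.

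Levels of the pathway genes moved together over the mice, with r of 0.918 to 0.997 over all 45 pairs. Values this high were not particular to the pathway, since genes outside it reached them too, as given below. Among the 6 pairs of H2-K1, H2-D1, B2m and Tapbp, r over 8 mice was 0.987 to 0.997 and rho 0.976 to 1 (exact permutation, adjusted p = 0.000279 for r in each pair, over 45 pairs computed). Leaving out the 2 mice farthest from the median of the first gene gave 0.969 to 0.993. Each table held 2 blocks of values for a mouse, and on log2 CPM scaled by the total counts of each block, without TMM factors, the blocks of 1 mouse differed by at most 0.20 for H2-K1 and 1.31 for Psmb9. The ranges between mice on that scale were 5.02 and 4.97.

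The genes outside the pathway whose log2 CPM was most like that of each member over the 8 mice were sought among 10010 genes with a mean of at least 10 CPM. For H2-K1 they were Hk3 (r = 0.995), Csf2rb and H2-Q4, for H2-D1 Csf2rb (r = 0.996), Hk3 and Mmp14, and for B2m Ctsc (r = 0.998), Hk3 and H2-Q6. For Tap1 they were Gbp2, H2-Q4 and Fgl2, for Tap2 H2-Q4 and Igtp, for Nlrc5 Gbp2, H2-Q4 and H2-T23, for Psmb8 Igtp and Gbp6, and for Psmb9 Igtp, Fgl2 and Cxcl9. Tapbp was most like H2-T23, Btf3 and Uba7, and Psmb10 was most like Rps13 (r = 0.999), H2-T22 and Rps3a1. These likenesses are descriptions chosen out of many genes and carry no test.

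The transcripts behind the gene totals differed in kind. B2m had 1 annotated transcript with counts, and H2-D1 was 94.7 to 100% protein coding in every mouse. Tap2 was the opposite, since 89.9% of its counts were assigned to the retained-intron transcript Tap2-202 (79.0 to 93.6% per mouse), so its level above is mostly not that of the coding transcript. Retained-intron transcripts took 22.4 to 48.4% of the H2-K1 counts and 5.01 to 68.3% of the Psmb8 counts per mouse. Of the 31-base words of Psmb8 and Tap2 transcripts, 13.7% and 14.3% also occurred in other annotated genes, and for Tapbp 26.9% did. For the main Psmb9 transcript 13.8% did, all of them in Tap1, which overlaps Psmb9 on the opposite strand. Tap1 had a mean of 418 counts against 60.5 for Psmb9, so the low Psmb9 values are uncertain in this way too. Zbtb22 overlaps Tapbp by 3422 bases on the same strand.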

How the data were processed

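Libraries were made from total RNA of sorted cells (Qiagen RNA micro kit, SMARTer Stranded Total RNA-Seq Kit v2). Per the labels and the submitters' processing notes, the authors quantified transcripts with kallisto 0.46.2 and used DESeq2 2.11.40.6 and mm10, and whether strand was used in counting is not given in the sources used here. The deposited tables hold, per transcript, estimated counts, TPM and effective length in 2 blocks for each mouse, and what separates the blocks is not stated. Estimated counts of both blocks were summed per mouse, joined to GENCODE M21 by transcript ID (0.429 to 0.611% of counts had no match), summed per gene and rounded. TPM was averaged over the blocks, since the deposited TPM column reaches the full TPM total in each block. Depth was 7782352 to 17503537 counts in the tested genes per mouse, and the counting limit of 3 counts covers counting error only.

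The 10 genes were tested inside edgeR 4.0.16 fits over all 15194 genes kept by its expression filter (TMM scaling, quasi-likelihood test, Benjamini-Hochberg, threshold 0.05), and CPM used TMM library sizes, with a prior count of 2 for log2 CPM. A negative log2 fold change means lower in females. Ratios used a pseudocount of 0.1 TPM on the log2 scale. Permutation tests were exact and 2-sided. Alternatives were DESeq2 1.42.0, other scaling and filters, each block alone, a length offset, the counts without Lars2, and leaving out each mouse. Scripts were tested on simulated data. Replicates are separate mice by the labels.

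All 10 genes are named, and of the other lists the genes past the threshold and those with the highest TPM. Erap1, Irf1 and Rbfox3, named for their calls without female 1, as well as Psme2, Mr1, H2-Q2, H2-M2, Nfya, Rfxank, Rfx5 and Cd3e were picked with their values known. The genes, lists and motifs were chosen with earlier results of these data known. For the promoters, RefSeq windows of GRCm38.p6 matched 8 of the 10 genes, and starts differed from GENCODE by 3579 bases for Tapbp, 474 for Psmb8, 434 for Psmb9 and 364 for H2-D1. No protein sequence was used here. One gene of the lists is not reported here.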

Additional observations from a re-analysis of the deposited data

Results flagged for a closer look

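Sets of 4 mice within a sex were tested over the 10 genes and 3 ratios. In 4 of 26 sets the gap of the highest mouse to the next, divided by the range on the log2 scale, passed the 95% limit for 4 values. The sets hold the same mice and genes that vary together, so this count cannot be set against the 1 in 20 that chance gives. Among the males, male 2 was far above the others for Tap2 (0.878 of the range) and Psmb9 (0.946). Among the females, female 1 was far above the others for Psmb8 (0.879) and Psmb9 (0.857).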

How the results depend on the processing

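The log2 fold changes of the 10 genes were below 0 in all 170 alternative fits. None of the 10 passed 0.05 under edgeR with RLE scaling, with no filter or a stricter one, with either block alone, with the length offset, without Lars2 or with the replicate block. DESeq2 called 1 of 10, Psmb10, and leaving out 1 mouse called 0 to 9 of 10, with 9 only without female 1. Over all genes the 24 calls became 1052 with DESeq2, 13 with the length offset, 1 with the replicate block, and 8 to 415 without 1 mouse, with 415 without female 1 and 411 without male 1. The causes were not tested. Same-numbered mice did not deviate together (correlations of -0.396 to 0.0719), so the numbers do not pair the mice. The ratio of Psmb10 over Psmb7 gave -1.27 with log2 CPM in place of TPM (exact permutation p = 0.0286, unadjusted). That p is the smallest the test can give and, unlike the main ratios, was not adjusted over the ratios, so it is no pass. Without 1 mouse, the log2 ratio of Psmb8 over Psmb5 was -2.66 to -1.47 and that of Psmb9 over Psmb6 -2.53 to -0.92. Both were at their exact permutation limit of p = 0.0286, also unadjusted, without female 1. Precision is limited by 4 mice per sex, and for Psmb9 by 4 counts in the lowest library.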
